A study of Mus musculus with 6 samples.

Results

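The 8 genes described here encode the membrane proteins through which tumor, stromal and antigen-presenting cells engage checkpoint and costimulatory receptors: Cd274 (PD-L1), Pdcd1lg2 (PD-L2), Cd80, Cd86, Icosl, Cd276 (B7-H3), Cd47 and Pvr (CD155). They were taken by symbol from the gene table, where all 8 were found among 23358 entries, and they were followed in each of 6 NT3 tumors by mouse line and tumor site. All tumors were spontaneous and came from female mice carrying NT3, a ROSA26 allele of NIK (NF-κB-inducing kinase) that lacks the TRAF3-binding domain and is switched on by Cre. In Osx-Cre;NT3 mice, a Tet-OFF Osterix (Sp7) promoter drove Cre and mice received doxycycline until weaning, and tumors 13, 18 and 25 were trunk tumors with latencies of 150, 168 and 115 days. In FSP1-Cre;NT3 mice, the S100a4 promoter drove Cre, a driver known to be active in fibroblasts and in some myeloid cells. Tumor 29 was a trunk tumor with a latency of 72 days, whereas tumors 27 and 36 were perineal with latencies of 101 and 52 days. For both Cre drivers, the paper cites reports of activity outside the mesenchymal lineage, chiefly in hematopoietic cells. The NT3 parent was on C57Bl/6J in both lines. The lines differed in the strain of the Cre parent, mixed C57Bl/6J and CD1 for Osx-Cre and FVB/n for FSP1-Cre. The mean RNA integrity given in the labels was higher in FSP1-Cre;NT3. Line, strain and latency therefore cannot be told apart in these tumors, and since every perineal tumor was FSP1-Cre;NT3, line and site overlap. Tissue without the NT3 transgene was not analysed here.

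T cells need a signal through CD28 or ICOS beside the antigen receptor, which CD80, CD86 and ICOS ligand provide. CTLA-4 binds CD80 and CD86 more tightly than CD28 does and restrains the T cell, PD-1 restrains it on binding PD-L1 or PD-L2, and TIGIT does so on binding CD155, for which the activating receptor CD226 competes. CD47 binds SIRPα on macrophages and inhibits phagocytosis. CD80, CD86 and PD-L2 are best known on dendritic cells, macrophages and B cells, whereas PD-L1, CD47, CD155 and B7-H3 are also made by many tumor and stromal cells, and PD-L1 is a textbook target of interferon gamma.

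Cd274 and Pdcd1lg2 are neighbors on chromosome 19 of GRCm38, on the plus strand, with Cd274 at chr19:29367438-29388094 and Pdcd1lg2 at chr19:29410919-29472927. The gene start positions in the table for Icosl and Cd276 lie at chr10:78069368-78079525 (plus strand) and chr9:58524300-58540940 (minus strand). Promoter sequences from RefSeq (GRCm38.p6) were held for 6 of the 8 ligands and not for Cd86 and Pvr. The 250 bases before the RefSeq start are shown for Cd274 and Pdcd1lg2, the neighboring pair with the widest spread between tumors, and for Icosl and Cd276, the pair of ligands with the most similar pattern over the tumors. Capitals mark matches to the motifs searched.

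Cd274 (chr19:29367188-29367437, plus strand): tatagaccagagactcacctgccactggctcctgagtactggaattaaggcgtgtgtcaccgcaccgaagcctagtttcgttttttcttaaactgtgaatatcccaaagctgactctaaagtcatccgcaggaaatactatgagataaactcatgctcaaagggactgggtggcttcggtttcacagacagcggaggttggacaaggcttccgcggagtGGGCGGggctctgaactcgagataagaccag
Pdcd1lg2 (chr19:29410669-29410918, plus strand): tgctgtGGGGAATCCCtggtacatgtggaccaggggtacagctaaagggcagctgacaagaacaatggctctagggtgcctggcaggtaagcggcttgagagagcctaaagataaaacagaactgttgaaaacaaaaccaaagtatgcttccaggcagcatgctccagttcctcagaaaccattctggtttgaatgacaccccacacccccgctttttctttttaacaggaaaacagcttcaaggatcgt
Icosl (chr10:78069118-78069367, plus strand): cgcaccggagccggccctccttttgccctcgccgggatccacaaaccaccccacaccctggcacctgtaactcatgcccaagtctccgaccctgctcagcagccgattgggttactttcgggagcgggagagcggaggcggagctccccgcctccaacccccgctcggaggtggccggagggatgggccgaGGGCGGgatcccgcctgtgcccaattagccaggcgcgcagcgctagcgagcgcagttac
Cd276 (chr9:58555034-58555283, minus strand): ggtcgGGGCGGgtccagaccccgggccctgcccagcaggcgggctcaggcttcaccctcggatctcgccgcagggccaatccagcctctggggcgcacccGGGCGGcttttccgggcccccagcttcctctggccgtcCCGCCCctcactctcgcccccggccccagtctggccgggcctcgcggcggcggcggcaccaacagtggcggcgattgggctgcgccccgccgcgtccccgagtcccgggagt

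Both strands were searched for the κB consensus, the paired IRF motif (GAAA, any 2 bases, GAAA), the GAS motif TTCNNNGAA, the AP-1 motif TGANTCA, the GC box GGGCGG and TATAAA, and a palindromic match was counted once per position. The Cd274 window held 1 GC box, from 31 to 26 bases before the start, and the Icosl window held 1 from 59 to 54 bases before it. The Cd276 window held 3 GC boxes, 1 of them on the other strand, and both windows of Cd47, which has 2 RefSeq starts, held 2. The Pdcd1lg2 window held 1 match to the κB consensus, from 244 to 235 bases before the start, which read as such on both strands. The Cd80 window held 1 AP-1 motif, from 42 to 36 bases before the start. None of the 6 ligands with a window had a match to the paired IRF motif, TTCNNNGAA or TATAAA in these bases. Among all 32851 RefSeq windows of the same length, 32.7% held a GC box, 12.4% TATAAA, 7.02% the GAS motif, 6.75% the AP-1 motif, 3.9% the κB consensus and 2.98% the paired IRF motif. The Cd276 window does not adjoin the gene as the table delimits it. The deposited gene ends at position 58540940, and the window lies beyond it, from 58555034. The bases differed in composition as well, with G or C making up 77.6% of the Cd276 and 68.8% of the Icosl window beside 50.4% in Cd274 and 48.4% in Pdcd1lg2.

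The tumors were sequenced to between 51824408 and 163297772 counts on genes, so that 3 counts, the limit that a count of 0 allows, correspond to between 0.0195 and 0.0621 CPM (counts relative to library size, scaled by TMM). Every ligand was far above this limit in every tumor, with Pdcd1lg2 in tumor 13 the lowest at 30 counts. All deposited counts were even, and if both ends of each fragment were counted the limit is 6 counts, or 0.039 to 0.124 CPM, and Pdcd1lg2 in tumor 13 rests on 15 fragments. Perineal tumor 36 stood apart from the other libraries. Its mean Pearson correlation of log2 CPM with the others was 0.886 across 16415 genes, which are not independent replicates, beside 0.929 to 0.947 for the other 5 tumors. It also had the highest summed level of simple epithelium markers (Krt8, Krt18, Krt19, Cldn3 and Epcam), 4646 CPM beside 566 to 1173, and the lowest of basal keratinocyte markers, 5759 CPM beside 10065 to 14517. The site comparisons of the ligands, the receptors and some markers are given with and without it. Without it tumor 27 is the only perineal tumor, so those values compare that tumor alone with the trunk tumors. The files do not say whether strand was used in counting, and without strand 511 of the 3622 exonic bases of Cd274 overlap an antisense gene, AC119228.1, and 416 of the 3658 of Cd276 overlap Gm10657 on the other strand, so reads from those stretches could belong to either. GENCODE M21 has no exon of another gene over the other 6 ligands.

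Icosl was the most abundant of the ligands and Pdcd1lg2 the least. On the deposited RPKM scale, which divides counts by library size and the length deposited for each gene, Icosl had 56.6 ± 25.3 RPKM (mean ± SD, n = 6 tumors) and ranked 1039th among all 23358 entries by mean. Cd47 followed with 35.5 ± 5.84 RPKM and Cd276 with 21.4 ± 6.74 RPKM. The CD28 and CTLA-4 ligands were in the middle, Cd80 with 9.12 ± 2.88 RPKM and Cd86 with 6.97 ± 2.12 RPKM. Pvr had 2.68 ± 0.872 RPKM, Cd274 had 2.34 ± 1.37 RPKM and Pdcd1lg2 had 0.42 ± 0.428 RPKM, which placed them 10464th, 10844th and 14225th among the entries. In single tumors the order by RPKM held for some neighbors and not for others. Cd47 was above Cd276, Cd276 above Cd80, Cd86 above Pvr and Cd274 above Pdcd1lg2 in 6 of 6 tumors, and only between Cd86 and Pvr did the ranges over the tumors not overlap. Icosl was above Cd47, Cd80 above Cd86 and Pvr above Cd274 in 4 of 6 tumors each, so these neighbors did not differ beyond their spread. The order depends on the gene lengths, since the deposited lengths differ from the exonic lengths of GENCODE M21, with 1914 against 6276 bases for Cd47, 1700 against 3703 for Cd80 and 2888 against 6122 for Pvr. Per exonic length the means were 41.4 CPM per kb for Icosl, 23.1 for Cd276, 13.6 for Cd47, 6.07 for Cd86, 5.23 for Cd80, 2.89 for Cd274, 1.57 for Pvr and 0.901 for Pdcd1lg2. Cd276 was then above Cd47 in 4 of 6 tumors, Cd86 above Cd80 in 4 of 6 and Cd274 above Pvr in 6 of 6, so these neighbors changed places, while Icosl was above every other ligand and Cd274 above Pdcd1lg2 in 6 of 6. Icosl made up from 26.2% to 51.6% of the summed RPKM of the 8 ligands, and Pdcd1lg2 from 0.0817% to 1.18%.

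**Figure D1:**
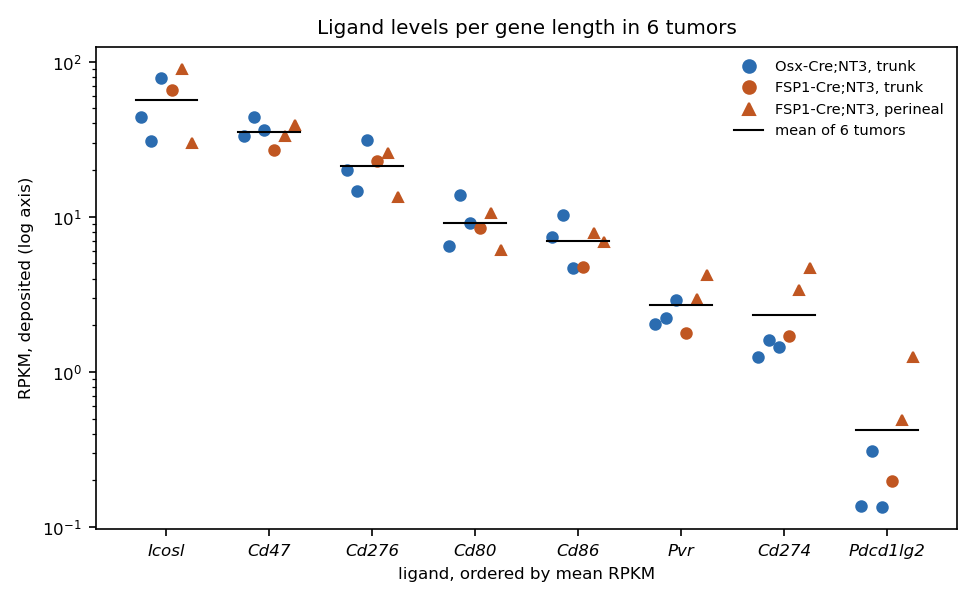
Deposited RPKM (log axis) of the 8 ligands in 6 tumors, with 1 point per tumor (blue Osx-Cre;NT3, orange FSP1-Cre;NT3, circle trunk, triangle perineal) and a line at the mean. Means run from 56.6 RPKM for Icosl to 0.42 RPKM for Pdcd1lg2, and the perineal triangles lie above every circle for Cd274, Pdcd1lg2 and Pvr.

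The spread between tumors also differed between the ligands. The SD of log2 CPM over the 6 tumors was 1.19 for Pdcd1lg2, higher than for 89.4% of the genes tested, 0.71 for Cd274 and 0.63 for Icosl. Cd47 was the steadiest with an SD of 0.27, at the 22.2 percentile. Cd86, Cd80, Cd276 and Pvr lay between 0.41 and 0.47, close to the median of 0.47 over all genes tested.

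Cd274, which encodes PD-L1, the broadly expressed ligand of PD-1, was highest in the perineal tumors. It had 6.0, 7.70 and 6.5 CPM in Osx-Cre;NT3 tumors 13, 18 and 25, and 13.8, 7.77 and 20.9 CPM in FSP1-Cre;NT3 tumors 27, 29 and 36. All 4 trunk tumors thus lay within a narrow band whichever line they came from, and both perineal tumors were above it. By site, Cd274 had 17.4 ± 5.0 CPM in perineal (SD, n = 2) and 7.0 ± 0.881 CPM in trunk tumors (n = 4), a log2 fold change of 1.31 (SE 0.29, 95% confidence interval 0.63 to 1.98). It did not pass edgeR's quasi-likelihood test after Benjamini-Hochberg adjustment over 16971 genes (adjusted p = 0.263, unadjusted p = 0.00245), and it passed DESeq2's test (adjusted p = 0.0045). By line, the log2 fold change was 1.07 in FSP1-Cre;NT3 against Osx-Cre;NT3 (SE 0.39, interval 0.14 to 2.01), with an edgeR adjusted p of 0.458 and a DESeq2 adjusted p of 0.191. The lines did not overlap, though tumor 29 at 7.77 CPM was next to tumor 18 at 7.70 CPM. With site as a covariate the log2 fold change between the lines was 0.21, and among trunk tumors alone it was 0.20, where tumor 29 is the only FSP1-Cre;NT3 tumor. Without tumor 36 the log2 fold change by line was 0.68 (edgeR adjusted p = 0.68), and by site it was 0.98 with an adjusted p of 1 in edgeR, and 0.95 with an adjusted p of 1 in DESeq2. Without tumor 13 DESeq2's adjusted p was 0.0586, and without tumors 18, 25, 27 and 29 in turn it ranged from 0.00121 to 0.0154. Within FSP1-Cre;NT3 alone, with 2 perineal tumors and 1 trunk tumor, the log2 fold change by site was 1.15 (edgeR adjusted p = 0.993).

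Pdcd1lg2, which encodes PD-L2, the ligand of PD-1 and of RGMB, moved in the same direction from a much lower level. It had 0.621, 1.4 and 0.563 CPM in tumors 13, 18 and 25, and 1.90, 0.846 and 5.27 CPM in tumors 27, 29 and 36, from 30, 216, 40, 124, 66 and 338 counts. Tumor 36 was far above the rest, tumor 27 was next, and trunk tumor 18 was closer to tumor 27 than to the other trunk tumors. By site the levels were 3.59 ± 2.38 CPM in perineal and 0.858 ± 0.383 CPM in trunk tumors, a log2 fold change of 2.05 (SE 0.59, interval 0.67 to 3.43) with an edgeR adjusted p of 0.307 (unadjusted p = 0.00978) and a DESeq2 adjusted p of 0.0344. By line the log2 fold change was 1.62 (SE 0.76, interval -0.19 to 3.44, edgeR adjusted p = 0.466), and the lines overlapped. Between the lines it was -0.04 among trunk tumors alone and -0.04 with site as a covariate. Without tumor 36 the log2 fold change by site fell to 1.14 in edgeR and to 1.11 in DESeq2, both with an adjusted p of 1, and by line it was 0.66 (edgeR adjusted p = 0.75). Leaving out tumor 13, 25 or 29 also took DESeq2's adjusted p above the threshold, to 0.155, 0.0831 and 0.085. The ratio of Cd274 to Pdcd1lg2 RPKM was 9.07, 5.15 and 10.8 in Osx-Cre;NT3 tumors 13, 18 and 25 and was 6.83, 8.62 and 3.73 in FSP1-Cre;NT3 tumors 27, 29 and 36, so Cd274 was above Pdcd1lg2 per length in every tumor, by the least in tumor 36.

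**Figure D2:**
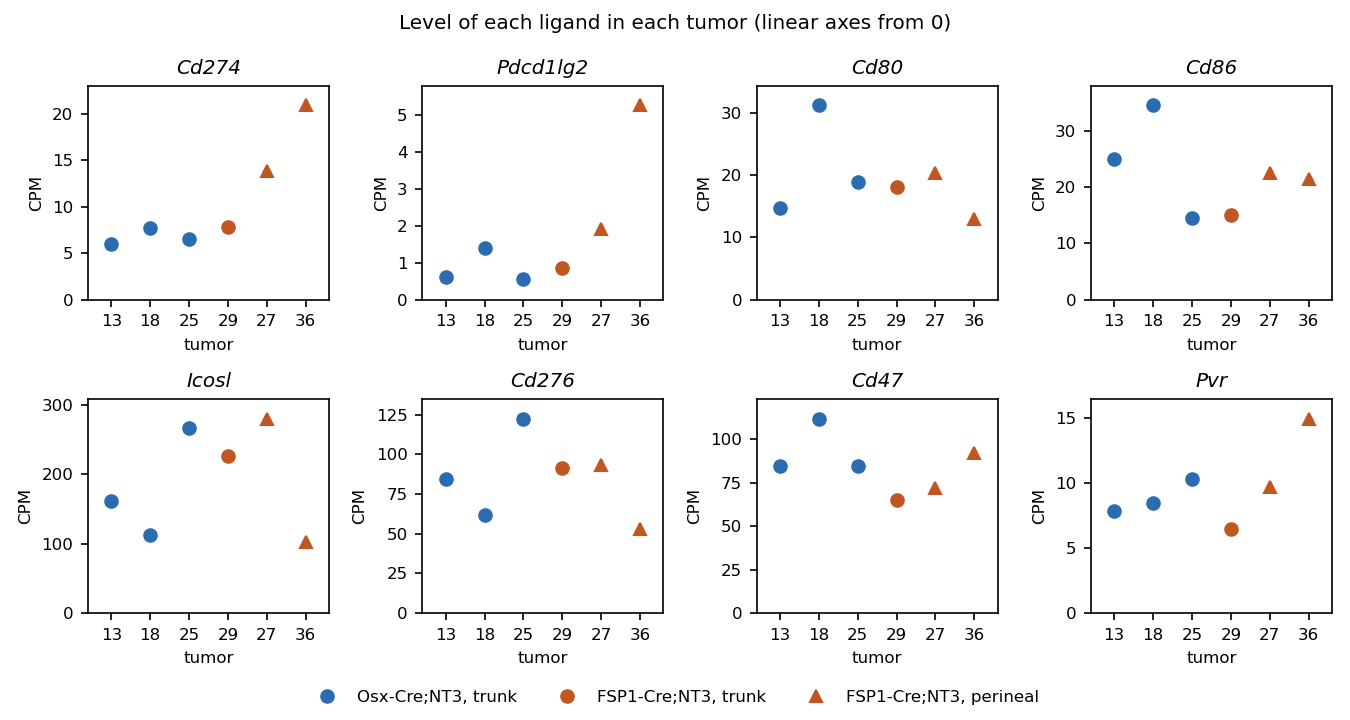
CPM of each ligand in each tumor on linear axes from 0, with 1 point per tumor (blue Osx-Cre;NT3, orange FSP1-Cre;NT3, circle trunk, triangle perineal). Cd274 lies between 6.0 and 7.77 CPM in the 4 trunk tumors and at 13.8 and 20.9 CPM in the perineal ones, whereas the sites overlap for Cd80, Cd86, Icosl, Cd276, Cd47 and Pvr.

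Cd80 and Cd86, the shared ligands of CD28 and CTLA-4, did not follow the PD-1 ligands. Cd80 had 14.7, 31.2 and 18.9 CPM in tumors 13, 18 and 25 and 20.3, 18.1 and 12.9 CPM in tumors 27, 29 and 36. Its highest level was in an Osx-Cre;NT3 trunk tumor and its lowest in perineal tumor 36, where Cd274 and Pdcd1lg2 were highest. Its log2 fold change was -0.33 by line (SE 0.34, interval -1.15 to 0.48, edgeR adjusted p = 0.691) and -0.32 by site (SE 0.37, adjusted p = 0.758). Cd86 had 25.1, 34.5 and 14.5 CPM in tumors 13, 18 and 25 and 22.6, 15 and 21.5 CPM in tumors 27, 29 and 36. It too was highest in tumor 18, and its log2 fold change was -0.33 by line (SE 0.35, interval -1.17 to 0.52, adjusted p = 0.708) and -0.02 by site (SE 0.39, adjusted p = 0.988). The lines and the sites overlapped for both genes. The ratio of Cd80 to Cd86 RPKM was 0.872 and 0.896 in tumors 13 and 36 and from 1.35 to 1.95 in the other 4, so on the deposited lengths neither ligand was the higher throughout. Without tumor 36 the log2 fold changes by site were -0.03 for Cd80 and 0.02 for Cd86.

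Icosl, the ligand of ICOS, had 162, 112 and 266 CPM in tumors 13, 18 and 25 and 279, 226 and 102 CPM in tumors 27, 29 and 36. The low tumors were 1 of each line, 18 and 36, and the 2 perineal tumors were the highest and the lowest of all 6. The log2 fold change was 0.17 by line (SE 0.45, interval -0.90 to 1.24, edgeR adjusted p = 0.885) and -0.01 by site (SE 0.48, interval -1.15 to 1.13, adjusted p = 0.994), so that by site a 2-fold change in either direction lies within the interval. Cd276, a B7 family protein of many tumors and stromal cells whose receptor is not settled, had 84.5, 62.0 and 122 CPM in tumors 13, 18 and 25 and 93.0, 91.4 and 53.1 CPM in tumors 27, 29 and 36. It was high and low in nearly the same tumors as Icosl, with a log2 fold change of -0.18 by line (SE 0.33, adjusted p = 0.835) and -0.30 by site (SE 0.34, adjusted p = 0.752). The ratio of Icosl to Cd276 RPKM stayed between 2.1 and 3.48. Without tumor 36 the log2 fold changes by site were 0.54 for Icosl and 0.045 for Cd276, each with an edgeR adjusted p of 1.

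Cd47, the ligand of SIRPα, had 84.8, 112 and 84.7 CPM in tumors 13, 18 and 25 and 71.9, 64.9 and 92.3 CPM in tumors 27, 29 and 36. Its range of 1.72-fold was the narrowest of the ligands, and its log2 fold change was -0.29 by line (SE 0.21, interval -0.80 to 0.22, edgeR adjusted p = 0.568) and -0.08 by site (SE 0.26, interval -0.70 to 0.54, adjusted p = 0.926). Pvr, the ligand of TIGIT, CD226 and CD96, had 7.87, 8.43 and 10.3 CPM in tumors 13, 18 and 25 and 9.67, 6.49 and 14.9 CPM in tumors 27, 29 and 36. Tumor 36 was the highest, but trunk tumor 25 was above perineal tumor 27, so the sites overlapped in CPM. In RPKM they did not, with 2.96 and 4.19 in perineal tumors 27 and 36 and at most 2.90 in trunk tumors. Its log2 fold change was 0.23 by line (SE 0.36, adjusted p = 0.805) and 0.57 by site (SE 0.32, interval -0.19 to 1.32, adjusted p = 0.56). Without tumor 36 the log2 fold change by site was 0.22 for Pvr and -0.27 for Cd47, each with an adjusted p of 1.

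**Figure D3:**
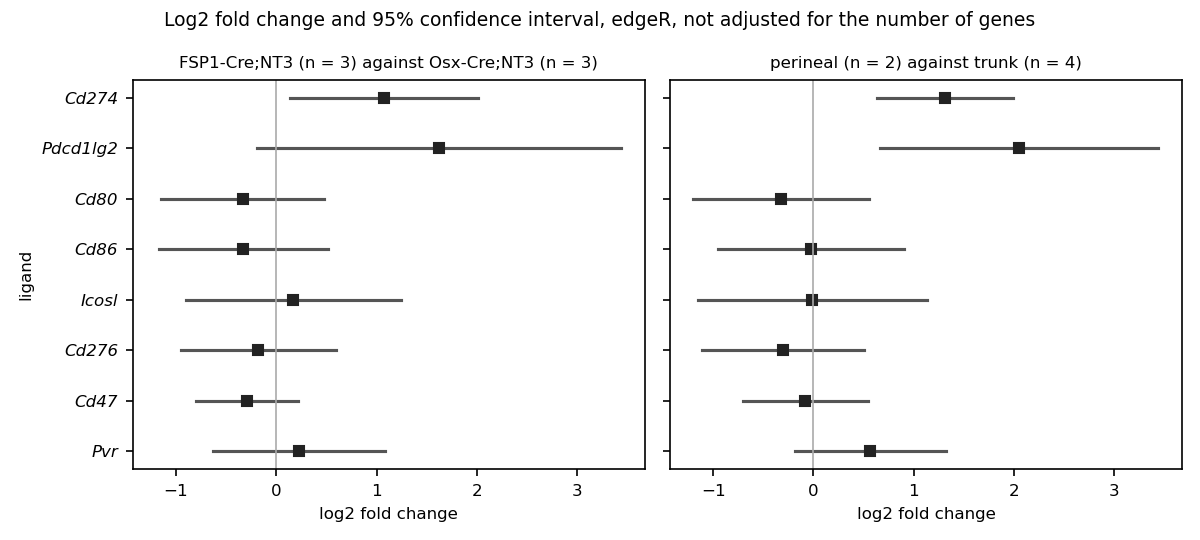
Log2 fold change (squares) and 95% confidence interval (lines) of each ligand from edgeR's fit across all genes, on the left FSP1-Cre;NT3 against Osx-Cre;NT3 and on the right perineal against trunk, where the intervals are not adjusted for the number of genes. The intervals of Cd274 lie above 0 in both panels and that of Pdcd1lg2 by site, at 0.67 to 3.43, and all others include 0.

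Of the 8 ligands, all of which passed the filter on low counts, 0 passed edgeR's adjusted p of 0.05 in either comparison, where 0 (0%) of 16415 genes did so by line and 0 (0%) of 16971 by site. The fit by line and the fit by site share all 6 tumors. At an unadjusted p under 0.05 there was 1 ligand by line, Cd274, beside 10.8% of all genes tested, and there were 2 by site, Cd274 and Pdcd1lg2, beside 10.5%. The groups did not overlap for 1 of 8 ligands by line, beside 17% of all genes, and for 2 of 8 by site, beside 19.7%, so that neither count stood clearly above its background. DESeq2 called 0 of 8 by line, where it called 2.74% of genes, and 2 of 8 by site, where it called 4.27%. The median log2 fold change of the 8 ligands was -0.00 by line and -0.02 by site, and over all genes tested it was 0.01 and -0.02.

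Among the T cell receptors of these ligands, each at 19.3 CPM or less, Cd28, Ctla4, Icos and Tigit had their highest levels in the perineal tumors. Of the 10 receptor genes listed, 9 were found and tested, and Pvrig was not analysed here. None passed an adjusted p of 0.05 in either comparison (edgeR), and at an unadjusted p under 0.05 there were 0 by line, beside 10.8% of all genes, and 4 by site, beside 10.5%, all higher in perineal tumors, with a median log2 fold change by site of 0.72 over the list. Cd28, the costimulatory receptor, had 0.911, 2.09 and 0.422 CPM in tumors 13, 18 and 25 and 4.97, 0.949 and 5.24 CPM in tumors 27, 29 and 36, a log2 fold change by site of 2.21 (SE 0.61, edgeR adjusted p = 0.292). Ctla4 had 0.745, 3.83 and 0.338 CPM in the Osx-Cre;NT3 tumors and 6.45, 1.13 and 7.70 CPM in the FSP1-Cre;NT3 tumors, a log2 fold change by site of 2.21 (SE 0.85, adjusted p = 0.428). Both receptors were highest in tumors 36 and 27 and next highest in tumor 18, the same order as for Pdcd1lg2. Icos had 5.38, 10.6 and 5.46 CPM and 15.6, 6.67 and 19.3 CPM in the same order of tumors (log2 fold change by site 1.31, SE 0.35, adjusted p = 0.289), and Tigit had 0.662, 2.00 and 0.957 CPM and 3.16, 1.18 and 3.55 CPM (1.47, SE 0.52, adjusted p = 0.384). Without tumor 36, with tumor 27 as the only perineal tumor, the log2 fold changes by site were 2.18 for Cd28, 1.15 for Icos, 2.08 for Ctla4 and 1.39 for Tigit. They were 0.92 for Pdcd1, 0.38 for Sirpa, 0.29 for Rgmb, -0.07 for Cd96 and -0.34 for Cd226. Such values cannot tell a difference between sites from a trait of tumor 27. With all tumors the other receptors had smaller log2 fold changes by site than Cd28, Ctla4, Icos and Tigit. Pdcd1, which encodes PD-1, had 3.89, 6.21 and 5.35 CPM in tumors 13, 18 and 25 and 8.62, 2.80 and 6.48 CPM in tumors 27, 29 and 36, so the sites did not overlap although tumors 36 and 18 were close (0.72, SE 0.41, adjusted p = 0.561). Sirpa, the macrophage receptor of CD47, had from 87.9 to 141 CPM in trunk tumors and 148 and 155 CPM in perineal ones, without overlap (0.41, SE 0.27, adjusted p = 0.588), and Rgmb had from 40.1 to 84.4 CPM. Cd226 and Cd96, the other receptors of CD155, had their highest levels, 10.8 and 16.6 CPM, in tumor 18, with log2 fold changes by site of -0.45 (SE 0.69, adjusted p = 0.825) and -0.36 (SE 0.63, adjusted p = 0.849).

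**Figure D4:**
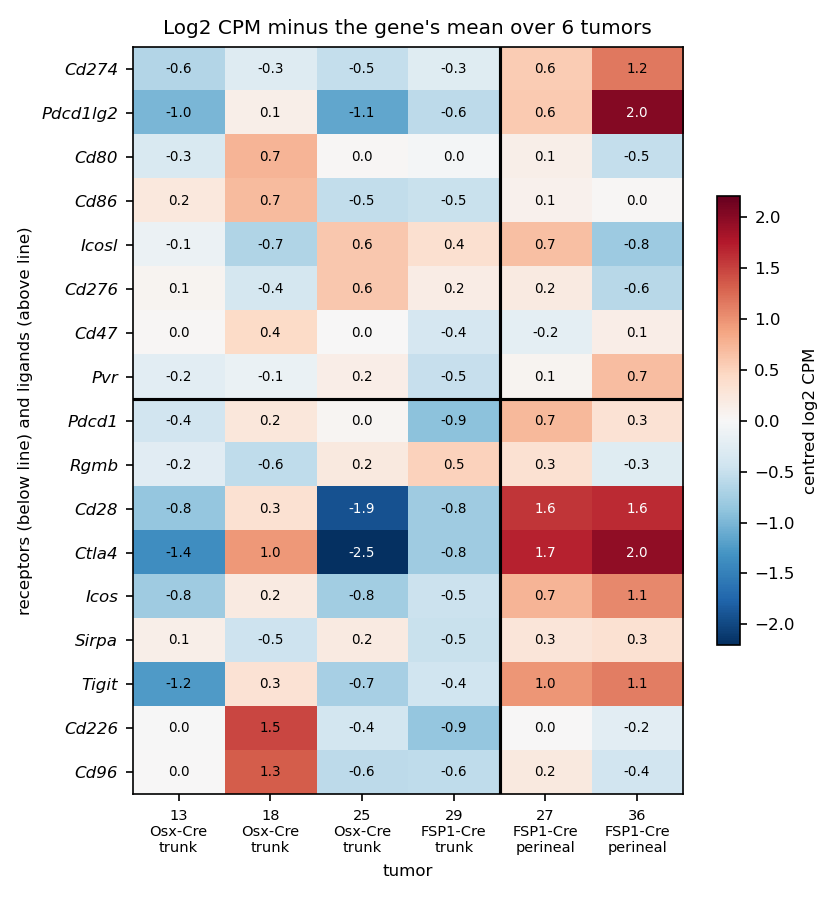
Log2 CPM of the 8 ligands (above the line) and 9 receptors (below it) in each tumor, minus the gene's own mean over the 6 tumors, with the 4 trunk tumors on the left and the 2 perineal tumors on the right. Cd274 and Pdcd1lg2 have their highest values in perineal tumors 27 and 36, as Cd28, Ctla4, Icos, Tigit, Pdcd1 and Sirpa do, whereas Icosl and Cd276 are lowest in tumor 36.

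Levels of several leukocyte and stromal markers also separated the sites, and because bulk RNA was measured, more cells of a type and more RNA per cell cannot be told apart. Ptprc (CD45), carried by all leukocytes, had from 52.8 to 91.6 CPM in trunk tumors and 113 and 115 CPM in perineal tumors 27 and 36. By CD45 staining, the paper saw more infiltrate in FSP1-Cre;NT3 tumors, the line of both perineal tumors, and considers ulceration its most likely reason. The lowest Ptprc level was in trunk tumor 29 of that line, and ulceration was not tested. The summed level of the 3 neutrophil markers found of 4 was 18.5 to 60.6 CPM in trunk tumors and 154 and 457 CPM in the perineal ones. Most of the sum in tumor 36 came from S100a8 (164 CPM) and S100a9 (269 CPM). The third, Csf3r, had 9.12 to 11.7 CPM in trunk tumors and 19.4 and 24.1 CPM in perineal ones. The summed level of 4 adipocyte markers was 2.32 to 12.5 CPM against 34.3 and 123 CPM. Among macrophage markers, 2 of 8 were higher at an unadjusted p under 0.05, beside 10.5% of all genes in either direction, Itgam (27.9 to 34.4 against 52.1 and 90.8 CPM) and Mrc1 (16.2 to 45.9 against 114 and 242 CPM). The list was split in direction, with 5 of 8 log2 fold changes above 0 by site. Lyz2 was lower without overlap, with 830 to 2274 CPM in trunk tumors and 677 and 698 CPM in perineal ones (log2 fold change -0.94). Cd68 (-0.28) and C1qa (-0.43) were also lower, with overlap. The sum of all 8, in which Lyz2 had the highest level, overlapped, with 1306 to 3108 CPM in trunk and 1374 and 1698 CPM in perineal tumors. Dendritic cell markers summed to 98.8 to 152 CPM and to 147 and 114 CPM, and T cell markers to 53.5 to 164 CPM and to 117 and 95.3 CPM, so these sums overlapped between the sites. Of the 6 T cell markers 1 was higher at an unadjusted p under 0.05, Cd4, with 16.1 to 20.7 CPM in trunk tumors and 33.1 and 33.5 CPM in perineal ones (log2 fold change 0.86, SE 0.22, edgeR adjusted p = 0.279). B cell markers summed to 7.04 to 12.8 CPM and to 9.45 and 16.0 CPM, with 3 of 5 higher at an unadjusted p under 0.05 and Ms4a1 at no more than 1.09 CPM in any tumor, and NK cell markers to 1.69 to 14.8 CPM and to 9.61 and 7.73 CPM. Fibroblast markers overlapped between the sites and not between the lines, with sums of 3520 to 4655 CPM in Osx-Cre;NT3 and 8088 to 10610 CPM in FSP1-Cre;NT3, while endothelial markers, with 87.0 to 210 CPM and 223 to 334 CPM in the lines and the 2 highest sums in the perineal tumors, did not overlap in either split. Smooth muscle and myoepithelial markers reached 2310 CPM in tumor 36 and had from 240 to 546 CPM in the others. Without tumor 36, tumor 27 is the only perineal tumor, so a difference between sites cannot be told from a trait of that tumor. The log2 fold changes were then 0.74 for Itgam, 1.89 for Mrc1 and 0.86 for Cd4. The medians were -0.03 over the 8 macrophage, 0.34 over the 6 T cell and 1.26 over the 5 B cell markers. The part of these cells in the levels of Cd274 and Pdcd1lg2 was not tested.

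No gene of the lists that induce, stabilize or modify the ligands passed an adjusted p of 0.05 (edgeR) in either comparison. Of the 10 genes of the interferon gamma axis, 0 passed. At an unadjusted p under 0.05 there was 1 lower by line (Ifngr2, log2 fold change -0.46, adjusted p = 0.458), beside 10.8% of all genes in either direction, and 0 by site, beside 10.5%. Ifng itself had only 0.359 to 1.82 CPM, highest in tumor 18. The interferon-induced chemokine Cxcl9 had 12.9, 58.4 and 7.83 CPM in tumors 13, 18 and 25 and 39.6, 19.9 and 66.3 CPM in tumors 27, 29 and 36. Tumors 36, 18 and 27 were the highest, so that the sites overlapped (log2 fold change by site 1.09, SE 0.73, adjusted p = 0.593). Cxcl10, another such chemokine, had 94.2 CPM in tumor 18 and 18.5 to 30.9 CPM in the other 5 (-0.77, SE 0.68, adjusted p = 0.676). Socs1, an inhibitor of the pathway, had 19.5 CPM in tumor 36 and 34.3 to 43.0 CPM in the others (-0.32, SE 0.33, adjusted p = 0.722). Ifngr2, a subunit of the receptor, had 196 and 171 CPM in perineal tumors and 205 to 286 CPM in trunk tumors, without overlap (-0.44, SE 0.24, adjusted p = 0.552). Irf1, a direct activator of the PD-L1 gene, had 99.3 to 117 CPM in trunk tumors and 124 and 152 CPM in perineal ones (log2 fold change 0.31, SE 0.20, adjusted p = 0.582). Cmtm6 and Cmtm4 protect the PD-L1 protein from degradation, Qpctl modifies CD47 for binding to SIRPα and Marchf1 marks CD86 for removal. All 4 had log2 fold changes above 0 by site, with Cmtm6 at 87.7 to 110 CPM in trunk tumors and at 115 and 136 CPM in perineal ones (0.34, SE 0.20, adjusted p = 0.565). By site, 0 of 4 reached an unadjusted p under 0.05, beside 10.5% of all genes.

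No gene of the NF-κB list, the pathway of the kinase that the transgene encodes, passed the test. Of 9 genes, 0 passed an adjusted p of 0.05 in either comparison (edgeR). At an unadjusted p under 0.05 there were 0 in either comparison, beside 10.8% of all genes by line and 10.5% by site. The median log2 fold change was -0.09 by line and -0.17 by site. Relb, the transcription factor that NIK signaling sends to the nucleus, had from 195 to 229 CPM in tumors 13, 18, 25, 27 and 29 and 85.0 CPM in tumor 36, and Nfkb2, which encodes the p100 precursor cleaved on NIK signaling, had from 308 to 582 CPM and 190 CPM in tumor 36. Tumor 36 was therefore lowest for both and highest for Cd274 and Pdcd1lg2. Map3k14, the gene of NIK, had 38.7 and 43.4 CPM in tumors 18 and 36 and from 54.6 to 118 CPM in the others, as Icosl and Cd276 were lowest in tumors 36 and 18. Whether the table counts reads of the transgene under Map3k14 was not tested.

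Of 10 other immune ligands, not all of the same receptors or families, 0 passed an adjusted p of 0.05 in either comparison (edgeR). At an unadjusted p under 0.05 there were 2 lower in FSP1-Cre;NT3, beside 10.8% of all genes in either direction, and 0 by site, beside 10.5%. Cd24a, a ligand of Siglec-G that also restrains phagocytes, had 363, 389 and 301 CPM in Osx-Cre;NT3 and 164, 218 and 260 CPM in FSP1-Cre;NT3 tumors, without overlap (log2 fold change -0.71, SE 0.24, adjusted p = 0.458). Vtcn1 (B7-H4), an inhibitory B7 protein, had 17.3, 8.36 and 26.7 CPM and 6.75, 6.49 and 9.54 CPM (-1.20, SE 0.45, adjusted p = 0.458). Nectin2, which shares TIGIT and CD226 with CD155, had from 48.2 to 73.6 CPM, and Lgals9, a ligand of TIM-3, had from 32.2 to 93.9 CPM with the highest level in tumor 36.

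The likeness of patterns was measured as the root mean square difference between log2 CPM profiles over the 6 tumors, each centred on its own mean, so that 0 means the same pattern. Icosl and Cd276 were the closest pair of ligands at 0.25, followed by Cd86 and Cd47 at 0.31, and Pdcd1lg2 and Icosl were the farthest at 1.48. Cd274 and Pdcd1lg2 differed by 0.51. Among the other 16414 genes, the closest to Cd274 were Pcbp3 (0.08) and Rem1 (0.08), both under 4.09 CPM throughout, and the closest to Pdcd1lg2 were Tnfaip6 (0.13), a secreted protein of inflamed tissue, and Irgm2 (0.18), an interferon-inducible GTPase. Irgm2 had 9.77, 22.4 and 10.7 CPM in tumors 13, 18 and 25 and 24.6, 15.1 and 72.8 CPM in tumors 27, 29 and 36. Close to Cd86 was Kynu (0.10). Closest to Icosl were St5 (0.08) and Bcl7a (0.09), to Cd276 4632434I11Rik (0.04) and Usp10 (0.04), to Cd47 Lypla1 (0.03) and Capza1 (0.05), to Pvr Sqle (0.07) and Lrrfip1 (0.09), and to Cd80 Gm10416 (0.12) and AU041133 (0.13). With 6 tumors and 16414 genes such matches are a description only.

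The next genes along chromosome 19 had smaller log2 fold changes by site than Cd274 and Pdcd1lg2. On the side of Cd274, 5033414D02Rik had a log2 fold change by site of 0.22 (SE 0.39, edgeR adjusted p = 0.852) and Insl6 of -0.66 (SE 0.67, adjusted p = 0.72). On the side of Pdcd1lg2, A930007I19Rik had 0.32 (SE 0.61, adjusted p = 0.863) and C030046E11Rik 0.68 (SE 0.38, adjusted p = 0.559). The difference between these log2 fold changes and those of the ligands was not tested. Next to Icosl on chromosome 10 lies Aire, known for its role in thymic epithelium. Aire had from 161 to 280 CPM in 5 tumors and 53.1 CPM in tumor 36, and Dnmt3l had from 45.3 to 58.5 CPM and 18.7 CPM in tumor 36. On the other side of Icosl, D10Jhu81e and Pwp2 were also lowest in tumor 36, at 69.2 and 19.5 CPM, as Icosl itself was. Tumor 36 stood apart from the other libraries and was also lowest for Relb and Nfkb2. A link by position was not tested.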

How the data were processed

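Total RNA of 6 tumors was sequenced with an Illumina mRNA kit. The authors deposited raw gene counts and RPKM values in 1 table, with gene positions and lengths. The paper names HISAT2 and featureCounts on mm10, whereas the submitters' processing notes name TopHat2 2.0.6 and HTSeq on mm10; strandedness and annotation are not given in the sources used here. All deposited counts were even, as when both ends of a pair are counted, so halved counts were tried. Counts on genes made up from 77.2% to 81.5% of the library totals that the RPKM values imply. The 43 repeated symbols were kept as separate entries, and none of them was a ligand.

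Both comparisons, by line and by site, used edgeR 4.0.16 (R 4.3.3; filterByExpr, TMM, glmQLFit, glmQLFTest) across all genes, with 2-sided p-values and Benjamini-Hochberg adjustment over all genes tested. CPM were scaled by TMM, and log2 CPM used a prior count of 2. RPKM served only to compare genes. DESeq2 1.42.0, library sizes alone, upper-quartile scaling, other filters, site as a covariate, trunk tumors or FSP1-Cre;NT3 alone and leaving out each tumor were alternatives. DESeq2 without each tumor, levels per exonic length of GENCODE M21 and the lists without tumor 36 were added after results of these data were known. The scripts were tested on simulated data. The genes named are the ligands, the genes of the lists, the 2 nearest tested genes on each side of a ligand and the 2 genes with the most similar profile. Some of these genes are not reported here. The ligands and the lists were chosen with earlier results of these data known. Of 107 list genes, 105 were found, 7 of them under an older symbol. Each tumor has its own number in the labels, and p-values measure the spread between these tumors. The limit of 3 counts allows for counting error alone, as the sources name no molecular identifiers.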

Additional observations from a re-analysis of the deposited data

How the results depend on the processing

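Cd274 and Pdcd1lg2 were above 0 by site under every one of the 19 alternatives, with log2 fold changes of 0.95 to 1.58 and of 1.11 to 2.61. Their side of the threshold depended on the test. edgeR called neither in any fit, and DESeq2 called Cd274 in 5 of its 7 fits and Pdcd1lg2 in 3 of 7. These include the fits without tumor 27 or 36, which leave a single perineal tumor. By line, DESeq2 without tumor 29 called Cd274 (adjusted p = 0.0097), a fit in which line and site are the same split. No call was made for another ligand.

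The count of genes past the threshold depended on the tool and on single tumors. By line it was 0 in every edgeR fit, 452 with DESeq2 (390 higher, 62 lower) and from 0 to 3702 when each tumor was left out in turn under both tools, the last with DESeq2 without tumor 25 (1697 higher, 2005 lower). By site it was 0 with edgeR and all tumors, 738 with DESeq2 (694 higher, 44 lower) and from 0 to 1531 when each tumor was left out. Without tumor 27 edgeR called 567 and without tumor 25 it called 2, and without tumor 36 DESeq2 called 15. By site, the fits without tumor 27 or 36 leave a single perineal tumor. The cause was not tested.

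Several log2 fold changes changed sign, all of them small in the main fits except that of Pdcd1lg2 by line, which was 1.62 there. By line with site as a covariate Pdcd1lg2 had -0.035, Cd276 0.029 and Pvr -0.45, and among trunk tumors alone they had -0.043, 0.025 and -0.46. By site with library sizes alone Cd86 had 0.097, Icosl 0.10 and Cd47 0.017, with upper-quartile scaling Icosl had 0.010, with at least 10 counts in every tumor Cd86 had 0.0060 and Icosl 0.012, and in FSP1-Cre;NT3 tumors alone Cd86 had 0.54 and Cd47 0.33. When each tumor was left out, the values by line ran from -0.58 to 0.026 for Cd80, from -0.14 to 0.54 for Icosl, from -0.40 to 0.093 for Cd276 and from -0.16 to 0.46 for Pvr, and by site from -0.22 to 0.27 for Cd86, from -0.93 to 0.54 for Icosl, from -0.78 to 0.045 for Cd276 and from -0.30 to 0.099 for Cd47. The order of the ligands by RPKM was the same in tumors 25 and 29 as in the mean, 2 ligands changed place in each of tumors 13, 18 and 27, and 6 did in tumor 36. With GENCODE M21 exonic lengths 6 changed place.

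No paired analysis was possible because the tumors of the lines share no animal number in the labels. With 2 perineal tumors, both FSP1-Cre;NT3, site was compared with 1 trunk tumor of the same line, and strain, latency and RNA integrity vary with the line. Counting error weighs most on Pdcd1lg2, at 30 to 338 counts.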
